A study of Mus musculus with 6 samples.

Results

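Methylation of CpGs was followed across the loci of Gfi1 and Gfi1b, a pair of paralogous genes for transcriptional repressors, in LSK cells of the mouse. LSK cells, sorted from bone marrow as cells with Sca-1 and c-Kit but without lineage markers, hold blood stem cells and early progenitors. Whole-genome bisulfite sequencing was done on 3 wild-type samples (WT) and 3 samples from Tet2/3 DKO mice, which lack Tet2 and Tet3, both dioxygenases of methylated cytosine. In the labels the samples are biological replicates, and the labels give neither the alleles, the way the genes were deleted, the age of the animals, nor whether a sample pools several animals. The loci were the intervals 108115001 to 108185000 of chromosome 5 for Gfi1 and 28445001 to 28500000 of chromosome 2 for Gfi1b (mm9). They held 70 and 55 windows of 1 kb with a CpG, 125 of the 2335885 such windows on the autosomes, and 916 and 715 listed CpGs. Gfi1 was picked because a stretch of 5 kb there was higher in DKO, so the difference between groups at Gfi1 is described without a test. Gfi1b was taken as its paralogue, and its windows are read with the test.

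Both proteins carry a SNAG domain at the N-terminus, which recruits the histone demethylase LSD1 (Kdm1a) with its CoREST partners and histone deacetylases. Zinc fingers at the C-terminus bind DNA at sites with an AATC core. Gfi1 is known for restraining proliferation of blood stem cells and for its role in neutrophil and lymphoid development, and Gfi1b for erythroid and megakaryocytic development. The proteins can bind and repress their own and each other's genes. In mammals, active CpG-rich promoters are usually unmethylated, while most CpGs in gene bodies and between genes are methylated, with local dips at enhancers.

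The sequences before the RefSeq starts are shown because the methylation levels below are placed relative to them. Each is 250 bases long, ends at the base before the start, is read 5′ to 3′ along the gene (minus strand at both loci) and comes from RefSeq (GRCm38.p6). Capitals mark CpGs. The spacing of the CpGs in the longer RefSeq promoter sequences was found at 1 position of the same chromosome among the listed mm9 CpGs, which gave the mm9 positions of the starts. The first is the upstream Gfi1 start (chromosome 5, 108154826 to 108155075), the next the downstream Gfi1 start (108153364 to 108153613) and the last the Gfi1b start (chromosome 2, 28477503 to 28477752).
Gfi1, upstream start: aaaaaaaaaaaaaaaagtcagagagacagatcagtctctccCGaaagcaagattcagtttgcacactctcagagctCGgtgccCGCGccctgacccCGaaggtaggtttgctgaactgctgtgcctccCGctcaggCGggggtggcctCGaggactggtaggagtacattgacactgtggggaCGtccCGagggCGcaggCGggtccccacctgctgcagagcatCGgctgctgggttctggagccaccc
Gfi1, downstream start: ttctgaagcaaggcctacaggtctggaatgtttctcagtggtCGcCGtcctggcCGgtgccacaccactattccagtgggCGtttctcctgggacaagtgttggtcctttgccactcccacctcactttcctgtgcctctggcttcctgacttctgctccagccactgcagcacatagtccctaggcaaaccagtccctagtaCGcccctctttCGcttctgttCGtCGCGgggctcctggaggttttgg
Gfi1b: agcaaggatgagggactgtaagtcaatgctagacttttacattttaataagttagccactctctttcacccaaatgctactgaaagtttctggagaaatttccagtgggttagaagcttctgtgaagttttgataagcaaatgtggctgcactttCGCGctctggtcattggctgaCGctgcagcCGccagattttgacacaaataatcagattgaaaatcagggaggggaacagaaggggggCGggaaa
They hold 13, 9 and 5 CpGs, all listed in the table, and have 59.2%, 57.6% and 44.4% G and C. The motif AATC, searched on both strands, had 1 match before the upstream Gfi1 start, 0 before the downstream start and 4 before Gfi1b. At least 4 matches were found in 7.04% of 32851 promoter sequences of the same length, and at least 1 in 69.0%. The longer AAATCA, which contains AATC, had 1 match before Gfi1b and 0 before both Gfi1 starts, with at least 1 in 12.4% of promoters. GATAA, the letters of a site for GATA factors, likewise had 1 match before Gfi1b and 0 before both Gfi1 starts, with at least 1 in 22.6% of promoters.

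A level is the share of reads called methylated, in percent, and does not separate 5-methylcytosine from 5-hydroxymethylcytosine, the product of Tet enzymes. The samples held 70815948 to 111763872 read calls at CpGs, a read being counted at each CpG it covers. The mean depth was 3.46 to 5.46 reads per CpG, higher in DKO than in WT, and at these loci 3.26 to 6.13. Within groups, levels of tested windows correlated with Pearson's r between 0.898 and 0.913. DKO replicate 2 stood apart in coverage, with a chi-square per degree of freedom over 1 Mb bins of 117 and 81.3 against the other DKO samples. That value was 11.8 to 23.0 for the other pairs. Reads of the mitochondrial genome were called methylated at 1.37%, 1.21% and 1.25% in the WT samples and at 1.53%, 1.86% and 1.75% in the DKO samples, with no overlap. The part of this background in the small differences at gene starts was not tested. The targeted genes lie on chromosomes 3 and 6, and the segments 133132001 to 133136000 and 83352001 to 83355000 of these chromosomes held 109 to 165 and 169 to 231 reads in the WT samples. Each DKO sample had 0 reads over the former, and over the latter the DKO samples had 14, 0 and 0. Windows needed 3 or more CpGs, and 20 or more reads from each sample, to be tested, which left 32 windows at Gfi1, 35 at Gfi1b and 774732 on the autosomes.

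The start of Gfi1 was nearly free of methylation in every sample. The window of 64 CpGs that holds the upstream start (108154001 to 108155000, 162 to 378 reads) had 1.14%, 0% and 0% in the WT samples and 0.909%, 0% and 1.83% in the DKO samples. The next window upstream (108155001, 65 CpGs) had 0% in every WT sample and 0%, 0% and 0.627% in DKO. The window with the downstream start (108153001, 45 CpGs) had 0% in every WT sample and 0.257%, 1.90% and 0.481% in DKO. A count of 0 there allows levels up to 2.38%, 1.55% and 2.73% in the WT samples, for counting error only and taking calls at neighbouring CpGs as independent. Within the 250 bases printed for the upstream start, 2 of 123 WT calls and 1 of 186 DKO calls were methylated. Before the downstream start the counts were 0 of 134 and 6 of 247, all 6 from DKO replicate 2. Over the 2 kb centred on the upstream start the WT mean was 0.198% ± 0.344 and the DKO mean 0.407% ± 0.384 (SD, n = 3 samples a group).

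Inside the gene, the unmethylated block gave way to partly methylated DNA in WT, and this part was higher in DKO. The stretch from 108147001 to 108152000 lies 2.83 to 7.82 kb downstream of the upstream start, within the 9151 bases that RefSeq gives for the gene, and holds 138 CpGs. Its level was 58.9%, 50.2% and 49.9% in the WT samples and 78.0%, 92.6% and 73.8% in the DKO samples (358 to 580 reads). The groups did not overlap, DKO replicate 2 was the highest sample, and the DKO mean was 28.4 points above the WT mean (81.5% ± 9.84 and 53.0% ± 5.13, SD, n = 3 each). Without DKO replicate 2 the difference was 22.9 points, and over the 51 CpGs read in every sample, with the same weights, it was 32.3 points. Of 91 CpGs with at least 5 pooled reads in each group, 68 had a higher level in DKO, 10 a lower level and 13 the same. Since the stretch was picked for its rise in DKO, nothing is read from this count.

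The windows of this stretch differed in how far they moved. The largest difference was in the window 108147001 to 108148000, 7.32 kb downstream of the start at its centre, with 13 CpGs and 36 to 98 reads. It had 41.7%, 32.4% and 27.5% in WT and 89.1%, 81.6% and 74.6% in DKO. These groups lay far apart, by 48 points between the means. The neighbouring window, 108148001 to 108149000, had 55.0%, 56.5% and 50% in WT and 91.2%, 90.2% and 85.7% in DKO, with narrow spreads in both groups and a difference of 35.2 points. The window 108149001 to 108150000, already at 100%, 83.1% and 86.4% in WT, had 95.3%, 100% and 98.7% in DKO, and its groups overlapped.

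The window 108150001 to 108151000 is a CpG-dense element in the gene body, with 88 CpGs in 1 kb. It had 64.9%, 46.7% and 55.3% in WT and 73.7%, 96.5% and 69.5% in DKO (168 to 318 reads, or 1.91 to 3.61 per CpG). Here DKO replicate 2 was nearly fully methylated and the other DKO samples lay nearer to the WT samples. The difference of 24.3 points was 15.9 without DKO replicate 2. The window 108151001 to 108152000 followed towards the start, with 36.5%, 33.3% and 12% in WT and 53.1%, 84.2% and 62.1% in DKO. It too had its highest value in DKO replicate 2, and a difference of 39.2 points between the means.

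Just outside the stretch the differences were smaller. On the side of the start, the window of 62 CpGs at 108152001 to 108153000 had 3.09%, 1.05% and 4.38% in WT and 10.9%, 16% and 8.54% in DKO, 8.96 points apart. Towards the end of the gene, the window at 108146001 to 108147000 had 71.0%, 66.2% and 78.7% in WT and 89.9%, 91.7% and 89.0% in DKO, 18.3 points apart. Groups did not overlap in either window. The longest run of adjacent windows with no overlap and at least 10 points was 108146001 to 108149000, with means of 54.9% ± 3.91 for WT and 87.0% ± 3.83 for DKO (SD, n = 3).

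**Figure D1:**
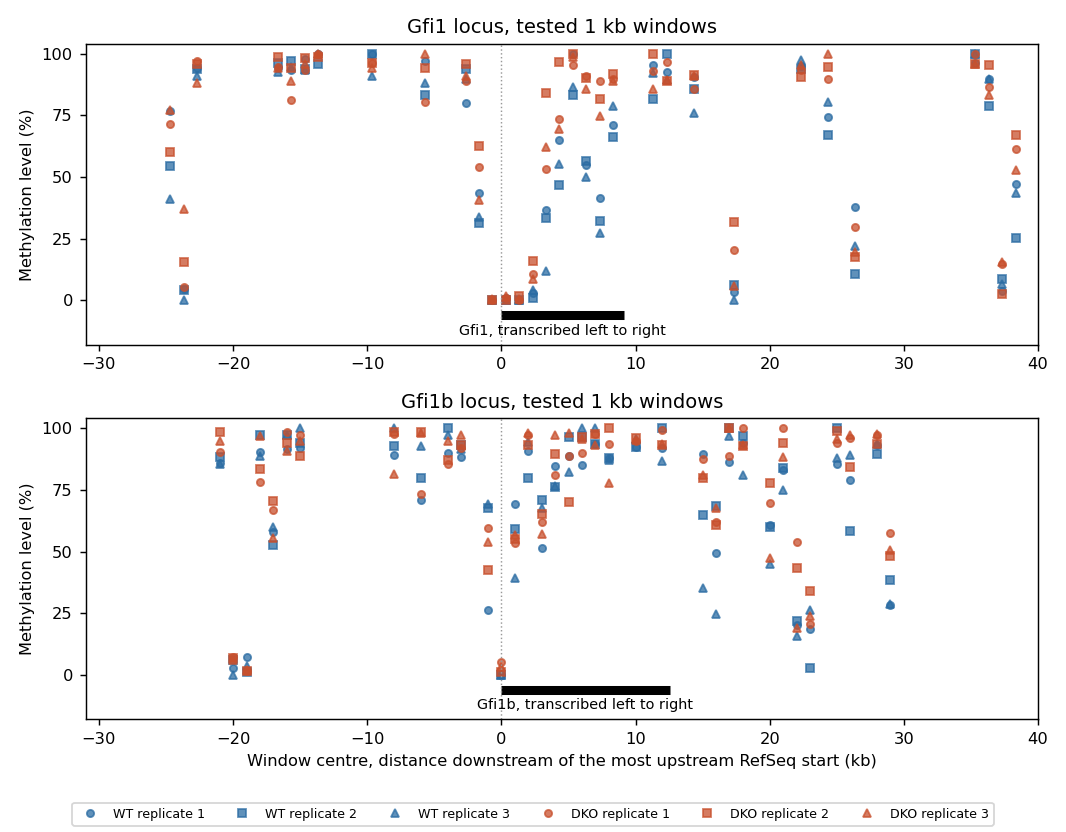
Methylation level in percent (vertical axis) of each tested 1 kb window against the distance of its centre downstream of the most upstream RefSeq start in kb (horizontal axis), for the Gfi1 locus (32 windows) and the Gfi1b locus (35 windows). Each point is a sample (blue WT, red DKO, the shape gives the replicate) and the black bar is the gene's RefSeq length; red points stand above blue ones in the body of Gfi1, and both are near 0 at the starts.

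At a finer scale, in 250 bp bins with at least 10 reads in every sample, the edge of the unmethylated block was seen in both groups. All bins from 1000 bp upstream to 1750 bp downstream of the upstream start that could be read had DKO means of at most 1.98%. The WT means there were 0%, except in the bin just before the start, where WT replicate 1 had 2 methylated of 12 reads. Between 2000 and 2250 bp the means were 0.833% in WT and 8.24% in DKO, and the groups overlapped. Between 2250 and 2500 bp they were 0.654% and 8.72%, without overlap. Between 2500 and 2750 bp they were 6.55% and 19.3%, again with overlap. The next bin with enough reads lay at 3500 to 3750 bp, where the WT samples had 35.3%, 31.2% and 0% and the DKO samples 83.3%, 76.5% and 80%, from 12 to 35 reads each. Between 4000 and 4250 bp the WT samples scattered from 13.0% to 80.4% and overlapped the DKO samples at 47.3% to 94.3%. On the upstream side the block ended sooner: the bin from 1500 to 1250 bp before the start had 19.5% in WT and 30.2% in DKO.

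**Figure D2:**
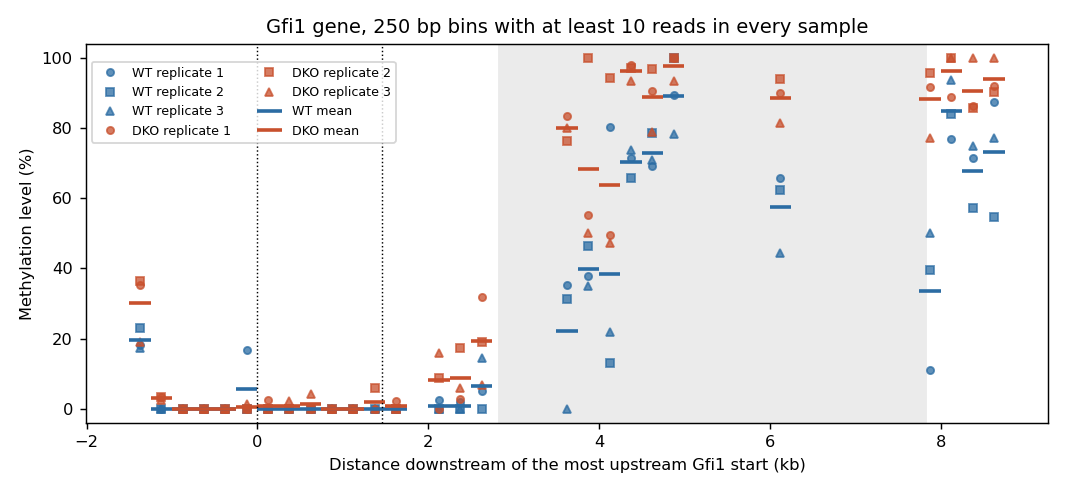
Methylation level in percent of 250 bp bins around the Gfi1 gene against the distance downstream of its upstream start in kb, for bins with at least 10 reads in every sample. Points are samples, short lines group means, dotted lines the RefSeq starts, and the shaded area the 5 kb stretch; levels are near 0 in both groups around the starts and the DKO means lie above the WT means in the shaded area.

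Of the 32 tested windows of the Gfi1 locus, 5 were called higher in DKO by the quasi-binomial test (adjusted p under 0.05 and at least 10 points) and 0 lower. Over all autosomal windows 0.49% were called higher and 0.00723% lower. Since the locus was picked on this contrast, nothing is read from its count. Of the 5, 4 lie in the 5 kb stretch. The other is 24.3 kb downstream of the start, at 108130001 to 108131000, with 74.3%, 67.0% and 80.6% in WT and 90%, 94.7% and 100% in DKO (19 CpGs, 38 to 100 reads), 20.9 points apart. A window that was not called, 108116001 to 108117000 at 38.3 kb downstream, differed by 21.9 points without overlap. It had 47.1%, 25.4% and 43.5% in WT and 61.5%, 67.0% and 53.0% in DKO (18 CpGs, 66 to 108 reads), and 7.65 points over the CpGs read in every sample. The start of the lncRNA gene 4930428O21Rik was placed near the called window, at 108132499. The 1 kb around that start was methylated in both groups, with means of 95.5% ± 1.73 for WT and 93.2% ± 2.43 for DKO (SD, n = 3).

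Calls at Gfi1 depended on the test, the read minimum and each library. Limma on log2 ratios called 0 of the windows, and a minimum of 10 reads left 1. A minimum of 40 reads left 0, but of the 5 called windows only that at 108150001 still had enough reads to be tested. Leaving out WT replicate 1, WT replicate 3, DKO replicate 1 or DKO replicate 3 left 1 of the 5 calls, the window at 108147001. Without WT replicate 2 or DKO replicate 2 there were 0.

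Low-methylated windows lay away from the promoter too, and in some of those described here the DKO samples spread widely. At 108137001 to 108138000, 17.3 kb downstream of the start, the WT samples had 3.23%, 6.06% and 0% and the DKO samples 20.6%, 32.0% and 5.71%. The mean difference of 16.4 points fell to 4.90 points over the CpGs read in every sample. At 108178001 to 108179000, 23.7 kb upstream, the values were 4.65%, 4.26% and 0% in WT and 5.41%, 15.6% and 37.3% in DKO. DKO replicate 2 had the highest value in the former and DKO replicate 3 in the latter, so no sample led in both. The third, 26.3 kb downstream at 108128001 to 108129000, was low in both groups and spread more in WT, with 37.8%, 10.9% and 21.9% in WT and 29.8%, 17.8% and 19.7% in DKO. Another, 37.3 kb downstream at 108117001 to 108118000 with 44 CpGs, had 3.97%, 8.70% and 6.78% in WT and 14.6%, 2.69% and 15.8% in DKO. Its groups overlapped, and its difference was 0.892 points over the CpGs read in every sample. The 3 windows with the lowest differences, at 108170001, 108132001 and 108142001, had -6.91, -2.31 and -2.23 points, with group means of 88.2% or more. At 108142001 the sign turned without WT replicate 2 (0.775 points), and at 108170001 the value ran from -3.40 without DKO replicate 1 to -10.0 without DKO replicate 2.

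The Gfi1b start had little methylation too, over a shorter length. Its window, 28477001 to 28478000 with 20 CpGs and 72 to 125 reads, had 0% in every WT sample and 5.26%, 1.01% and 3.20% in DKO. A count of 0 allows up to 4.17%, 3.41% and 4.11% in the WT samples, for counting error only. The difference of 3.16 points did not pass the quasi-binomial test (adjusted p = 0.401). In the 250 printed bases 0 of 68 WT calls and 7 of 78 DKO calls were methylated, 6 of them in DKO replicate 1, and DKO replicate 2 had a single call there. The flanking windows were partly methylated in both groups. The one upstream (28478001) had 26.3%, 67.6% and 69.1% in WT and 59.7%, 42.5% and 53.8% in DKO, and the one downstream (28476001) 69.2%, 59.1% and 39.4% and 53.4%, 55.1% and 56.9%. Their groups overlapped, with adjusted p = 0.940 and 0.958 by the quasi-binomial test.

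The body of Gfi1b was highly methylated in both groups. From 1 kb after the start to the end of its RefSeq length of 12533 bases, the level was 86.2%, 88.8% and 89.1% in WT and 90.6%, 88.7% and 89.7% in DKO. The samples overlapped (difference 1.65 points, two-sided exact permutation p = 0.3, where 0.1 is the smallest that 3 against 3 samples allow). At the distance from the start that the 5 kb stretch has in Gfi1, the Gfi1b samples had 78.4%, 89.8% and 86.3% in WT and 83.6%, 82.6% and 86.3% in DKO. Of 42 CpGs there with at least 5 pooled reads in each group, 14 were higher in DKO, 15 lower and 13 equal.

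Downstream of Gfi1b lay a row of partly methylated windows in which most DKO means were higher, but no window passed the test. Distal regulatory elements of Gfi1b in blood cells are known downstream of the gene, and no mm9 annotation of them was used here. The window at 28448001 to 28449000, 29.0 kb downstream, had the largest difference of the locus. It had 28.3%, 38.4% and 28.8% in WT and 57.6%, 48.2% and 50.6% in DKO (28 CpGs, 53 to 197 reads). The groups were apart by 20.3 points between the means (quasi-binomial test, unadjusted p = 0.00264 and adjusted p = 0.171).

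The window 28455001 to 28456000, 22.0 kb downstream, had 20.0%, 22.0% and 15.6% in WT and 53.8%, 43.3% and 19.2% in DKO. DKO replicate 3 lay within the WT range, and the adjusted p was 0.22 (quasi-binomial test). The difference of 19.6 points was 12.1 without DKO replicate 1 and 29.4 without DKO replicate 3. At 15 kb downstream, 28462001 to 28463000 had 89.7%, 64.9% and 35.0% in WT and 87.5%, 80% and 81.1% in DKO. Here the WT samples spread over more than the difference of 19.7 points (adjusted p = 0.564, quasi-binomial test), which was 5.62 points without WT replicate 3 and 32.9 without WT replicate 1. Its neighbour at 28461001, 16 kb downstream, showed a like spread, with 49.4%, 68.5% and 24.5% in WT and 62.0%, 60.6% and 67.5% in DKO. At 28456001, 21 kb downstream, the groups were apart again, with 83.1%, 83.8% and 75% in WT and 100%, 94.1% and 88.2% in DKO (adjusted p = 0.327, quasi-binomial test). The 3 windows with the lowest differences, at 28481001, 28495001 and 28472001, had -6.57, -6.14 and -3.52 points, with group means of 85.7% or more (adjusted p = 0.702, 0.819 and 0.917, quasi-binomial test). The sign at 28472001 turned without WT replicate 2 (0.080 points) or DKO replicate 2 (4.33 points), and it was -9.78 without DKO replicate 3. At 28495001 the value ran from -2.18 without DKO replicate 1 to -11.5 without DKO replicate 3.

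Over the 35 tested windows of Gfi1b the quasi-binomial test called 0, and 6 had an unadjusted p under 0.05, against 9.27% of all autosomal windows. By limma on log2 ratios 0 were called and 5 had an unadjusted p under 0.05. Fisher's exact test on the summed reads of each group, which ignores the spread between samples, called 6. The DKO samples were all higher than the WT samples in 6 windows and all lower in 0, against 9.05% and 3.75% of all tested windows. At Gfi1 these counts were 10 and 0 of 32. The median difference was 3.16 points at Gfi1b and 3.57 at Gfi1, beside 0.928 over all tested windows. The Gfi1 counts and median include the stretch for which the locus was picked, so nothing is read from them.

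Summed over the whole Gfi1b locus, the level was 62.5%, 63.9% and 58.7% in WT and 72.9%, 66.2% and 68.2% in DKO. The groups did not overlap, and the difference was 7.39 ± 2.52 points (SE, n = 3 each; exact two-sided permutation p = 0.1, the smallest that this design allows). Over the CpGs read in every sample, with the same weights, it was 4.49 points (exact permutation p = 0.1). Gfi1 had 54.3%, 45.7% and 50.9% in WT and 57.5%, 55.3% and 56.9% in DKO, a difference of 6.26 ± 2.60 points (SE), again without overlap. The difference at Gfi1 minus that at Gfi1b was -1.13 points. It was 2.75 points over the CpGs read in every sample and 4.33 as a mean over tested windows, so that the sign depended on the weighting. The gap between the loci within a sample had an SD of 5.91 points over the 3 WT samples and 2.44 over the 3 DKO samples.

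The loci were then read by segment. In Gfi1 the gene body from 1 kb after the start averaged 32.2% ± 3.99 for WT and 49.1% ± 7.10 for DKO (SD, n = 3), 16.8 points apart. The flanks differed by 2.66 points upstream and 4.12 downstream, with overlapping samples. In Gfi1b the flank downstream of the gene had 64.4%, 64.4% and 62.1% in WT and 73.4%, 69.8% and 72.0% in DKO, with no overlap. That difference was 8.10 points (exact permutation p = 0.1, n = 3 each, the smallest this design allows). Segments were chosen after their values were seen, so their p-values are not those of planned tests. Upstream of Gfi1b, a flank that includes the start of Tsc1, the difference was 8.64 points over all reads (exact permutation p = 0.2, n = 3 each) and 0.590 points over the CpGs read in every sample. In WT alone, these body segments were far apart, with Gfi1 at 28.3% to 36.3% and Gfi1b at 86.2% to 89.1%. The Gfi1 segment includes the downstream start and part of the unmethylated block, such as 62 CpGs at 108152001 with 1.05% to 4.38% in WT. Over the 5 kb stretch the WT samples had 49.9% to 58.9%, beside 78.4% to 89.8% at the same distance in Gfi1b. The stretch was picked for its rise in DKO, and a large rise needs a WT level that leaves room for it. Its lower WT level is thus partly set by the choice. The Gfi1 body segment holds the stretch, so no difference between the paralogues in WT is read from either comparison. Whether the difference between groups itself differs between the loci was not tested, since Gfi1 was picked on it.

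**Figure D3:**
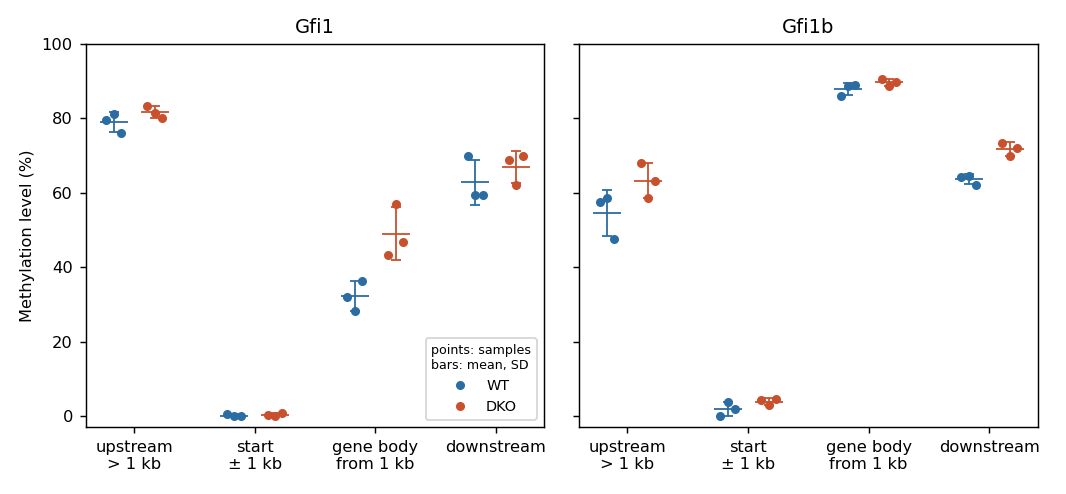
Methylation level in percent of 4 segments of each locus (over 1 kb upstream of the start, 1 kb either side of the start, gene body from 1 kb, downstream of the gene). Points are samples, horizontal bars with whiskers the group mean and SD (n = 3); the groups are separated in the body of Gfi1 and downstream of Gfi1b and lie near 0 at both starts.

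Windows were also grouped by level. Windows with a mean of 10 to 50% over all 6 samples differed by a median of 16.4 points at Gfi1 (6 windows) and 19.6 at Gfi1b (3 windows), beside 5.16 points over all 35171 such windows. At 50 to 80% the medians were 29.7 points at Gfi1 (4 windows), 7.50 at Gfi1b (7 windows) and 5.77 over all. At 80% or more they were 1.50 (17 windows), 2.68 (22 windows) and 0.606, and below 10% they were 0.879 (5 windows), 3.16 (3 windows) and 0.510. Of the Gfi1 windows, 3 of the 4 at 50 to 80% and 1 of the 6 at 10 to 50% belong to the stretch for which the locus was picked, so nothing is read from its medians. On the autosomes 4.54% of tested windows lay at 10 to 50% and 10.3% at 50 to 80%. The shares were 18.8% and 12.5% at Gfi1, and 8.57% and 20.0% at Gfi1b. These shares rest on the few windows counted above, and those at Gfi1 include the picked stretch, so nothing is read from them.

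**Figure D4:**
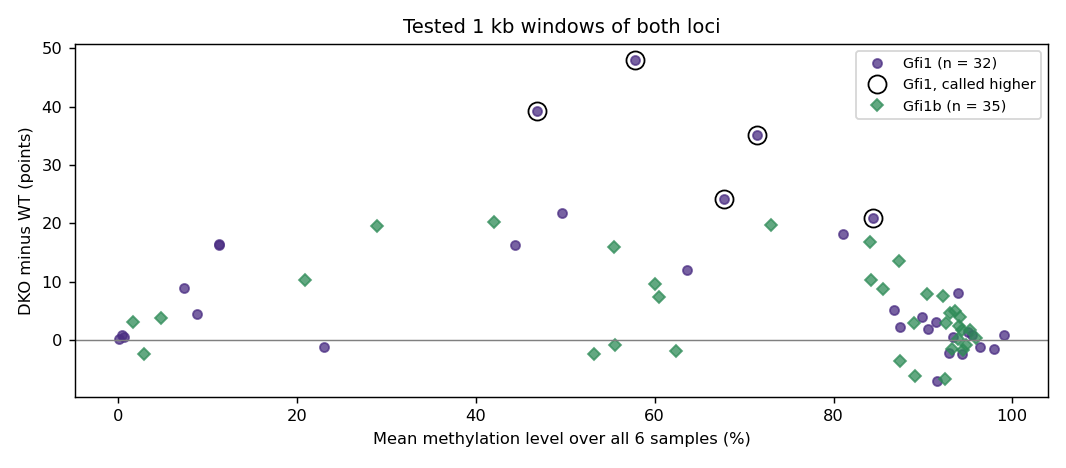
Difference between the DKO and WT means in points (vertical axis) against the mean level over all 6 samples in percent (horizontal axis) for the tested 1 kb windows of Gfi1 (32, circles) and Gfi1b (35, diamonds). Open black circles mark the 5 windows called higher, all at Gfi1; most windows near 100% lie close to 0 and the largest differences are in windows of intermediate level.

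Starts of other genes of this pathway were read over 1 kb around each start that could be placed. Of 19926 autosomal starts tested by the quasi-binomial test 0% were called higher and 0% lower, with 2041 at an unadjusted p under 0.05. Limma on log2 ratios called 0, with 1556 at an unadjusted p under 0.05, and Fisher's exact test 1215. The dispersion prior of the quasi-binomial test had 1.24 degrees of freedom for starts, beside 23.7 for windows, so little precision was borrowed between starts. The members' counts of 0 below are therefore read as no more than that of all starts. A count of 0 here does not show that starts were unchanged.

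Among partners and cofactors, 21 starts of 14 of 17 listed genes were tested, 0 were called in either direction, and the median difference was 0 points beside 0.463 over all starts. All 21 were below 10% in WT. Kdm1a, the demethylase that the SNAG domain recruits, had 4.22%, 1.29% and 1.82% in WT and 11.5%, 2.58% and 2.18% in DKO, with DKO replicate 1 alone above the rest. Rcor1, the CoREST scaffold, was at 0% in all 6 samples. Rcor2, its relative, had the largest difference of the list, from 8.54% ± 4.71 to 15.7% ± 5.19 (SD, n = 3; adjusted p = 0.529, quasi-binomial test), and a start of Gse1 the lowest, at -2.59 points.

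Transcription factors known to act on the loci were tested at 16 starts of 12 of 18 genes, with 0 called in either direction and a median difference of 0.279 points. The start of Runx1, a factor of blood stem cells, averaged 1.58% ± 1.05 for WT and 2.51% ± 0.637 for DKO (SD, n = 3). Differences ran from -7.00 points at a start of Ebf1, a B-cell factor, to 8.22 points at a start of Erg, an ETS factor. At Erg the value rested on DKO replicate 3, at 34.5%, while the other DKO samples had 15.4% and 11.5% beside 11.7% to 13.0% in WT.

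Reported targets of the repressors were tested at 28 starts of 22 of 36 genes, again with 0 called, a median of 0.386 points and a higher DKO mean at 20 starts (71.4%, beside 62.2% of all starts). Several starts of Egr2 on this list share most of their reads. The largest difference was at Hoxa9, a homeobox gene of stem cells and leukaemia. It had 1.27%, 1.53% and 3.00% in WT and 15.7%, 11.4% and 14.3% in DKO, apart by 11.9 points (unadjusted p = 0.000850, adjusted p = 0.459 by the quasi-binomial test). Of all starts on these lists it was the 1 that Fisher's exact test called. It was also the 1 with a difference of at least 10 points, which a call needs. Elane, the gene of neutrophil elastase, averaged 80.1% ± 1.32 for WT and 87.7% ± 0.444 for DKO (SD, n = 3; adjusted p = 0.524, quasi-binomial test). At Socs1, a feedback inhibitor of cytokine signalling, the lowest difference, -5.41 points, came from WT replicate 1 at 17.4%, the other samples being at 0.658% or less. Other genes with a SNAG domain were tested at 3 starts of 9 genes with 0 called, and differences of 0.274 to 2.96 points.

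Markers of the sorted cells were read at the same width. Among genes of stem and progenitor cells, 6 starts of 5 of 6 genes were tested, with 0 called. Kit, Cd34, Flt3 and Procr were low in both groups, with WT means of 0.0712%, 0%, 0.961% and 2.47% and DKO means of 0.420%, 0.284%, 2.13% and 8.60%. Slamf1 stood above them, at 21.6% in WT and 27.0% in DKO. Among genes of mature cells, 4 starts of 4 of 9 genes were tested, again with 0 called. Cd3e, Cd79a and Elane, genes of T cells, B cells and neutrophil precursors, had WT means of 87.7%, 86.9% and 80.1% and DKO means of 90.5%, 92.7% and 87.7%. Itgam, a gene of myeloid cells, was lower and went the other way, with 51.7%, 74.3% and 47.5% in WT and 54.4%, 48.3% and 41.3% in DKO, and its groups overlapped. Pax6, a gene of eye and brain, had means of at most 6.74% at both its tested starts. Expression was not measured, and Ly6a, which encodes Sca-1, had no tested start. Methylation of a bulk sample averages over cells, so a level between 0 and 100% does not separate a mixture of cells from partial methylation in each.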

How the data were processed

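Libraries were made from sheared DNA of sorted LSK cells with bisulfite treatment before amplification, per the labels' protocols. The authors deposited 1 table of read counts per CpG, methylated and total, for each of 6 samples, without normalisation or pooling. Per the submitters' processing notes, BSMAP 2.74 and the mm9 build were used. Read filters, duplicate removal and trimming: not given in the sources used here. Limits at a count of 0 cover counting error only, and retained duplicates would widen them. The table held 20451903 CpGs, 0 of them listed more than once, and 0 columns of other samples. Starts in the table were read as 0-based and are printed from 1.

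Reads were summed per 1 kb window and tested with a quasi-binomial logistic model, its dispersion moderated across all tested windows as in limma's squeezeVar with a floor of 1. Benjamini-Hochberg adjustment ran over 774732 autosomal windows. For windows the prior had 23.7 degrees of freedom, so it outweighed the spread within a window. For starts it had 1.24. P-values refer to the spread between these samples. Replicate pairs were compared by coverage, and none agreed within sampling noise. The model was tested on simulated data. The alternative called limma applies its moderated test, written in Python, to log2 of methylated over unmethylated reads with a pseudocount of 1. Python 3.11.15, numpy 2.4.6 and scipy 1.17.1 were used.

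RefSeq promoter sequences (GRCm38.p6) with at least 4 CpGs were placed on mm9 by the spacing of their CpGs. Of 22541 such sequences 21689 had 1 position; 41 were dropped, after the data were seen, as over 100 kb off the shift of their neighbours.

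Members and lists were chosen with earlier results of these data known. Named windows were, at each locus, the called ones, that with the start, the 3 largest rises and falls, that with the lowest WT level and the longest run; other windows, and the segments and bins, were chosen after their values were seen. From the lists, starts with the lowest and highest differences were named, and a few more for their role. Alternatives were another read minimum, window or test, the replicate block, other CpG weights and leaving out each sample.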

Additional observations from a re-analysis of the deposited data

How the results depend on the processing

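The dispersion prior from windows at 10 to 90% and the alternatives for the 5 kb stretch were chosen after seeing the data; the others were planned. Against 3854 windows called on the autosomes, 5 at Gfi1 and 0 at Gfi1b, a minimum of 10 reads gave 304, 1 and 0, and 40 reads 271, 0 and 0. Limma on log2 ratios gave 0, 0 and 0, and Fisher's exact test 50074, 10 and 6. The replicate block also gave 0, 0 and 0. Windows of 2 kb gave 7556, 4 and 0. Leaving out each sample gave 29 to 749 on the autosomes, 0 to 1 at Gfi1 and 0 at Gfi1b. Windows shifted by 500 bp gave 3626, 5 and 0, and the other prior 3890, 5 and 0. The causes of these changes were not tested. A minimum of 40 reads tested 239810 windows, beside 774732 in the main setting. More windows were tested with a minimum of 10 reads, and 788102 to 852729 without each sample.

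Whether the replicate numbers pair the samples is not settled by these values. Deviations of samples of the same number correlated at 0.00332 to 0.00359, and those of other numbers at -0.00204 to -0.00136. Every sample thus correlated best with its own number, but below 0.1. At Gfi1b the block left the difference at 7.39 points (sign-flip exact p = 0.25, the smallest that 3 pairs allow). The Gfi1 locus difference was 3.95 to 8.25 points without each sample and 14.0 over the 9 CpGs that each sample covered 5 times or more; Gfi1b had 0 such CpGs and so gave no value. At the Gfi1b window 28472001 the difference, not called in any setting, was -9.78 to 4.33 points without each sample. Without each sample, the Gfi1b difference was 5.49 to 8.85 points and that of the 5 kb stretch 22.9 to 32.3. The difference between groups at Gfi1 minus that at Gfi1b was then -4.53 to 0.689 points. For starts, Fisher's exact test called 1215 and every other setting run 0. Depth of 1.91 to 3.61 reads per CpG in the CpG-dense Gfi1 window limits single CpGs.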

Other observations

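The CpG-dense window in the body of Gfi1 (88 CpGs) was partly methylated in WT cells already. Among 4480 tested autosomal windows with at least 80 CpGs, 46 (1.03%) had a mean WT level above 40%, and this window had 55.6%. The limits of 80 CpGs and 40% were chosen after its values were seen. The window also belongs to the stretch for which the locus was picked, so nothing is read from this share.

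At the placed start of Tsc1, the neighbour of Gfi1b and a regulator of cell growth, the 1 kb around the start had 0% in every WT sample and 0%, 0% and 0.379% in DKO. A start of Gata2, a stem cell factor, had 0% in the WT samples and in DKO replicate 1, 20.5% in DKO replicate 2 and 0.535% in DKO replicate 3, so that 1 library alone held the signal.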
